A study of Mus musculus with 2 samples.

Results

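Conventional type 1 dendritic cells (cDC1) of subcutaneous Colon26 tumours were described here in mice that had received the HMGN1-derived peptide minP1, an antibody to PD-L1, both or neither. The members were the 88 cells, of 7732 kept CD45+ cells of 14 mice, in which Xcr1 or Clec9a reached 0.5 counts per 10000 reads of the cell (CP10k), Irf8 reached 1 CP10k, and C1qa (under 1 CP10k), Siglech (under 2), Trac (under 1) and Gzma (under 10) stayed below their limits. A cell was kept when at most 25% of its reads came from mitochondrial genes. The members were thus chosen by the measured levels of these 7 genes, and their levels against other cells are given below as a description. Of 354 kept cells with enough Xcr1 or Clec9a, 218 also had enough Irf8, and the limits on C1qa, Siglech, Trac and Gzma left 184, 165, 133 and then 88.

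cDC1 are a small branch of dendritic cells that depend on the transcription factors IRF8 and BATF3. They sense dead cells through the receptor CLEC9A, carry the chemokine receptor XCR1, and present antigen taken up from other cells on MHC class I to CD8 T cells, a process called cross-presentation. When they mature they gain CCR7, which leads them to the draining lymph node, and costimulatory molecules. In tumours they are known as a source of IL-12 and of the chemokines CXCL9 and CXCL10, which draw T cells. PD-L1, encoded by Cd274, is a ligand of the T cell receptor PD-1, and dendritic cells carry it too. HMGN1 is a nucleosome-binding protein that, once outside the cell, has been described as an alarmin that activates dendritic cells through TLR4.

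All mice were wild-type BALB/c mice that carried Colon26, a mouse colon carcinoma line, under the skin, and tumours were taken on day 10. The 4 minP1_PDL1 mice received 0.08 µg of minP1 into the peritoneum on day 9 and 200 µg of the anti-PD-L1 clone 10F.9G2 on days 4 and 8. The 4 minP1 mice received the peptide alone, the 3 PDL1 mice the antibody alone, and the 3 Control mice neither. Tumours were digested with Liberase and DNase and enriched on Percoll, and the mice were told apart by hashtag antibodies in a BD Rhapsody whole-transcriptome library. The labels call the cells intestinal, whereas their protocol describes a tumour under the skin. They speak both of separate runs and of a mixed library, and give no run for any mouse, so run and group cannot be told apart. Each mouse is 1 tumour, and the tests take the mouse, not the cell, as the unit. The spread between mice includes that of the few members caught in each tumour.

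The minP1_PDL1, minP1, PDL1 and Control mice had 2120, 2527, 1453 and 1632 kept cells in all, at most 724 in a mouse, and between 26007834 and 51230461 kept reads a mouse. The median member had 72985 reads (range 9453 to 211137) and 2877 genes, against 37800 reads and 2024 genes in the other kept cells (those in none of the 3 dendritic cell gates below), and 4.99% of its reads were mitochondrial. Reads, not unique molecules, were deposited. The intervals of shares below cover the counting of cells only, not the spread between mice. No cell barcode was shared between mice. Members per mouse were 3, 14, 5 and 4 in minP1_PDL1, 5, 3, 9 and 10 in minP1, 6, 8 and 9 in PDL1, and 3, 6 and 3 in Control. In 5 of the 14 mice there were fewer than 5 members, and 1 cell held between 18.3% and 59.5% of a mouse's member reads. Gene levels per mouse below rest on this few cells.

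Xcr1, Clec9a and Irf8 were genes of the rule, so their high levels in the members followed from the choice of cells and do not test the label. In CPM, reads of a gene per 1000000 reads of the class without scaling between mice (mean ± SD, n = 14 mice), Xcr1 stood at 517.5 ± 197 in cDC1 and 4.01 in type 2 conventional dendritic cells (cDC2), and 92.0% of members had a read of it, against 15.4% of the other kept cells. Clec9a stood at 174 ± 85.8 CPM in cDC1 and 3.75 CPM in cDC2, with a read in 65.9% of members and 1.16% of the other kept cells. The cDC2 were the 143 kept cells with Cd209a or Clec10a at 0.5 CP10k, H2-Ab1 at 5 CP10k and the same limits, and a gate on Siglech held 92 plasmacytoid dendritic cells. Irf8, the transcription factor of the rule, was at 2258 ± 767 CPM in cDC1, 324 CPM in cDC2 and 2818 CPM in plasmacytoid cells.

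Markers that the rule did not use were high in the members as well. Naaa, an acid amidase of lysosomes, averaged 2781 ± 641 CPM in cDC1, 860 ± 408 CPM in cDC2 and 242 ± 45.8 CPM in the other kept cells (SD, n = 14 mice), with a read in 83.0%, 81.1% and 34.4% of those cells. Wdfy4, which cDC1 need for cross-presentation, averaged 432 ± 186 CPM in cDC1, 43.8 CPM in cDC2 and 15.7 CPM elsewhere. Itgae, the integrin chain CD103, averaged 290 ± 183 CPM in cDC1 and 1.15 CPM in cDC2. Batf3 was lower and seen in fewer cells, at 79.1 ± 64.2 CPM in cDC1 (30.7% of members) against 26.5 CPM in cDC2. Cadm1, a cell adhesion molecule, and Tlr3, the receptor for double-stranded RNA, did not set cDC1 apart from plasmacytoid cells. Cadm1 was at 88.7 ± 68.5 CPM in cDC1 and 237 ± 116 CPM in plasmacytoid cells, and Tlr3 at 55.0 ± 42.6 CPM in cDC1 and 136 ± 55.8 CPM in plasmacytoid cells.

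**Figure D1:**
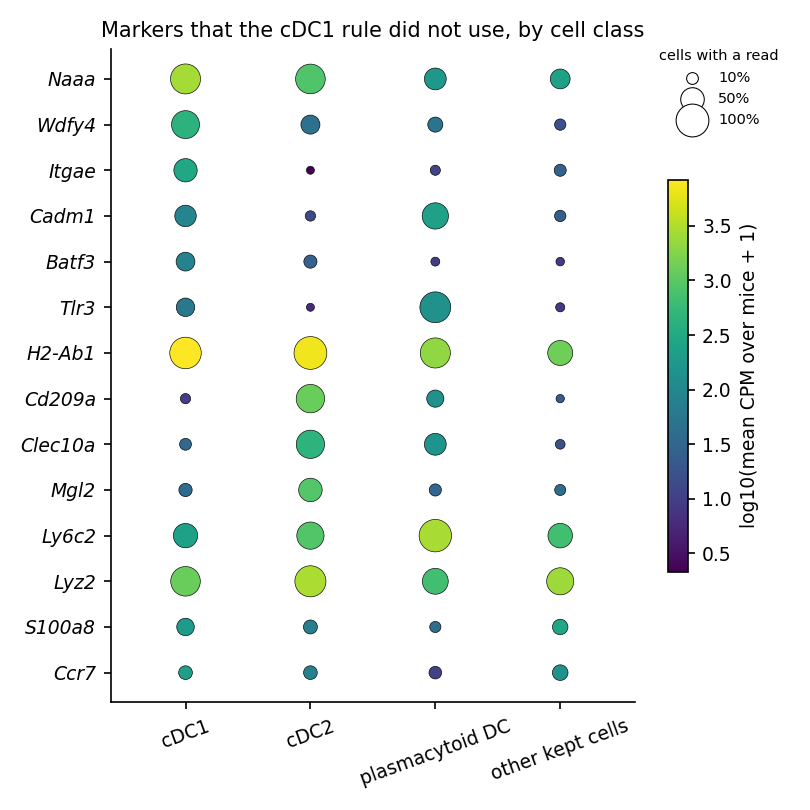
Genes (down the page) by cell class (across). Colour is the mean over mice as log10(CPM + 1), and dot size is the share of cells with a read, in percent. None of these genes was in the cDC1 rule, and Cd209a, Clec10a and H2-Ab1 were part of the cDC2 gate; Naaa reached 2781 CPM and Wdfy4 432 CPM in cDC1.

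Several genes of cDC2 and of monocytes and macrophages were lower in cDC1, but not all. Apoe, on the macrophage list, was at 152 ± 180 CPM in cDC1 and 138 CPM in cDC2. Chil3, on the monocyte list, was at 34.4 ± 55.0 against 30.6 CPM. Of genes outside both gates, Mgl2, a C-type lectin, was at 36.2 CPM in cDC1 and 919 CPM in cDC2, Mrc1, the mannose receptor, at 41.0 against 534 CPM, and Irf4, a transcription factor of cDC2, at 2.28 against 55.5 CPM. Sirpa, an inhibitory receptor used to sort cDC2, was at 99.7 CPM in cDC1 and 317 CPM in cDC2 and was higher in cDC1 in 0 of 14 mice. Cd14, a coreceptor of TLR4, was at 331 CPM in cDC1 and 1044 CPM in cDC2, and Cybb, a subunit of the phagocyte oxidase, at 258 against 782 CPM; each was higher in cDC1 in 1 of 14 mice. Tlr4, which has been described as the receptor for HMGN1, was at 22.0 ± 23.9 CPM in cDC1, 40.9 CPM in cDC2 and 43.5 CPM in the other kept cells, and its partner Ly96 at 12.9 CPM in cDC1 and 37.3 CPM in cDC2. Of neutrophil genes, S100a8, a calcium-binding protein, was higher as a mean, at 192 ± 363 CPM in cDC1 and 73.7 CPM in cDC2, and Cxcr2, a chemokine receptor of neutrophils, at 65.0 ± 63.7 CPM in cDC1 and 23.2 CPM in cDC2.

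Antigen presentation genes did not divide the 2 conventional classes in the same way. Cd74, the invariant chain of MHC class II, averaged 10443 CPM in cDC1 and 11078 CPM in cDC2, and was higher in cDC1 in 8 of 14 mice. Tap1, which carries peptides to MHC class I, averaged 383 ± 149 CPM in cDC1 and 267 CPM in cDC2, higher in cDC1 in 9 of 14 mice. Cd24a, a surface glycoprotein used to sort cDC1, stood at 1166 ± 547 CPM in cDC1 and 141 CPM in cDC2, Id2, an inhibitor of helix-loop-helix factors, at 1400 ± 362 against 809 CPM, and Btla, an inhibitory receptor, at 265 ± 130 against 18.2 CPM. These 3 were higher in cDC1 in 14 of 14 mice. Il12b, the IL-12 p40 chain, ran from 0 to 883 CPM in cDC1 of single mice and from 0 to 765 CPM in cDC2, was higher in cDC1 in 10 of 14 mice, and had a read in 15.9% of members. Cd274 averaged 189 ± 113 CPM in cDC1, 237 CPM in cDC2 and 184 CPM in the other kept cells.

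Among the 4140 genes with a read in at least 25% of members, those of largest ratio of mean CPM in members over all other kept cells, cDC2 and plasmacytoid cells included, are given next, with the 7 genes of the rule left out. Gcsam, a signalling adaptor known from germinal centre B cells, averaged 132 CPM in members with a ratio of 94.7. Plet1, a surface protein known from placenta and epithelium, averaged 749 ± 941 CPM, an SD above its mean, with a ratio of 73.3. Gpr141b, an orphan receptor gene, followed at 56.6 CPM with a ratio of 60.6, then A530099J19Rik with 57.3, Tlr11, a mouse receptor for profilin of protozoa, at 67.7 CPM with 48.9, and Sept3, a septin, at 496 CPM with 47.7. The others of the leading 15 were Tspan33, Hepacam2, Btla, Wdfy4, H2-Ob, Flt3, Cd24a, Cbfa2t3 and Rtl8c, with ratios between 40.0 and 12.96. Gcsam, Tlr11, Wdfy4 and Cd24a of these 15 are on the list of cDC1 markers used below. Flt3, the growth factor receptor of dendritic cells, was at 173 ± 73.7 CPM in cDC1, 26.8 CPM in cDC2 and 256 CPM in plasmacytoid cells.

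The 250 bases before the annotated start of several of these genes are printed because they can be read against the motifs of factors known in cDC1. They come from RefSeq (GRCm38.p6), run 5′ to 3′ on the gene's strand, and were picked after the values were seen. Capitals mark matches, on either strand, to GAAA followed after any 2 bases by GAAA, the repeat bound by interferon regulatory factors (IRF repeat below), to GGAA followed after any 2 bases by GAAA, the ETS-IRF composite, or to TGANTCA, the AP-1 site to which BATF dimers bind.
Xcr1 (chr9:123862030-123862279, minus strand): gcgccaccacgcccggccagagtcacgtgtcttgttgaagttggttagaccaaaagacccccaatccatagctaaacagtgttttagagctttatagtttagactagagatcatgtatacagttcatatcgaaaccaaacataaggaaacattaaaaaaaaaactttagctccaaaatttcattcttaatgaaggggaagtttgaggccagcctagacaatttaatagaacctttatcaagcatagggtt
Tlr11 (chr14:50357664-50357913, plus strand): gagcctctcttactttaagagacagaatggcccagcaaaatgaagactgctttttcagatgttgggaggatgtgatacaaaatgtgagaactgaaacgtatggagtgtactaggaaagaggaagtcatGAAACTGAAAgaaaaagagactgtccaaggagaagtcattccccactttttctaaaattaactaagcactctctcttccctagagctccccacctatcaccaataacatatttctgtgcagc
Gpr141b (chr13:19732952-19733201, minus strand): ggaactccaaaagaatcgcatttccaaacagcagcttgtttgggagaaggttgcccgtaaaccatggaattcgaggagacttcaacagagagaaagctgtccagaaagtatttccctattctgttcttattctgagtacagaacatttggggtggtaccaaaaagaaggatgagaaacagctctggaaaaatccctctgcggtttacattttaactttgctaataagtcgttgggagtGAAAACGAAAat
Plet1 (chr9:50494275-50494524, plus strand): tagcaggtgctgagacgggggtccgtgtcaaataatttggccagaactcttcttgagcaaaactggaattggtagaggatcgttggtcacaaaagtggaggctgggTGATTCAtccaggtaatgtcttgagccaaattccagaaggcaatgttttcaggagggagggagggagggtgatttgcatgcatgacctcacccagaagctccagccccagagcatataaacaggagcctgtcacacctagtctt
Isg15 (chr4:156200819-156201068, minus strand): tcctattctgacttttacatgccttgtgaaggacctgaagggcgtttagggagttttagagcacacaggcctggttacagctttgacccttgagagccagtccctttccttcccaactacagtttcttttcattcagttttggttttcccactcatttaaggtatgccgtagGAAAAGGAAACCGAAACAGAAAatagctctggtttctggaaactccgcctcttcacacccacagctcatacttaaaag
Xcr1 held none of the 3 motifs in this window, and Tlr11 and Gpr141b held the IRF repeat once each, 122 and 12 bases before the start. Plet1 held TGATTCA, a match to TGANTCA on either strand, 144 bases before its start. Isg15, a ubiquitin-like protein that type I interferon induces, held 3 overlapping IRF repeats 78, 72 and 66 bases before its start. Of 9 cDC1 markers 7 had an entry, and 0 of these held any of the motifs. Of the 15 leading genes 12 had an entry, of which 2 (16.7%) held the IRF repeat, 1 (8.33%) TGANTCA and 0 the composite. Of 32 type I interferon response genes 23 had an entry, of which 10 (43.5%) held the IRF repeat, 5 (21.7%) TGANTCA and 2 (8.7%) the composite. Among all 27025 RefSeq promoters, the IRF repeat was in 3.04%, TGANTCA in 6.87% and the composite in 2.38%. A match says that the letters are there, not that a factor binds.

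Members varied widely among themselves. Of 6 markers outside the rule (Naaa, Batf3, Cadm1, Itgae, Tlr3 and Wdfy4, each at 0.5 CP10k or more), 63 of 88 members (71.6%) had at least 2, against 40 of 143 cDC2 (27.97%), 64 of 92 plasmacytoid cells (69.6%) and 796 of 7409 other kept cells (10.7%). These 63 had medians of 30.1 CP10k for Naaa, 95.4 CP10k for H2-Ab1, a chain of MHC class II, and 2.19 CP10k for Lyz2, a lysozyme of myeloid cells. The other 25 members had medians of 0 CP10k for Naaa, 7.12 CP10k for H2-Ab1 and 1.24 CP10k for Lyz2, and 7 of them had Lyz2 at 50 CP10k or more. Their depth was lower, with a median of 38829 reads against 93672 reads in the 63, and the part of depth in this split was not tested. They made up 7 of 26 members in minP1_PDL1, 9 of 27 in minP1, 6 of 23 in PDL1 and 3 of 12 in Control.

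**Figure D2:**
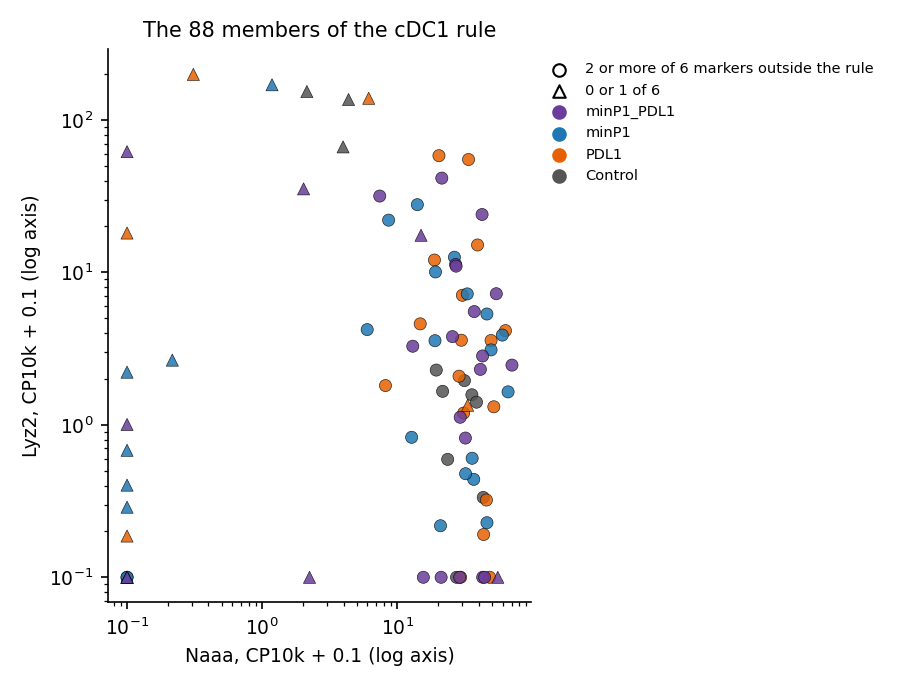
Naaa against Lyz2 in each of the 88 members, both in CP10k + 0.1 on log axes, by treatment; triangles are members with 0 or 1 of the 6 markers outside the rule. Most circles lie at high Naaa, around their median of 30.1 CP10k, and triangles have a median Naaa of 0.

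The way a member met the rule went with these markers. All 34 members with both Xcr1 and Clec9a had at least 2 of the 6 markers, as did 19 of 37 with Xcr1 alone and 10 of 17 with Clec9a alone. Their depth differed too, with medians of 115494, 46233 and 57291 reads in that order, and the part of depth was not tested. The 18 members just inside the limit, with the higher of Xcr1 and Clec9a between 0.5 and 1 CP10k, had a median Naaa of 0.105 CP10k and a median Lyz2 of 0.812 CP10k, and 5 had at least 2 markers. The 37 cells just outside it, between 0.25 and 0.5 CP10k, had a median Naaa of 1.06 CP10k and a median Lyz2 of 29.0 CP10k, and 4 had at least 2 markers. At the limit the rule thus held few cells with the cDC1 markers it did not use.

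Markers of other cell types were present in some members. At least 2 markers of a type at 1 CP10k were found for monocytes in 48 members, cDC2 in 21, macrophages in 19, neutrophils in 15, T cells in 7, plasmacytoid cells in 7, NK cells in 6, mature dendritic cells in 6 and fibroblasts in 1. B cell, epithelial and mast cell markers reached that level in 0 members. For the types outside the dendritic and mast cell lists, 57 of 88 members (64.8%) had at least 2 markers of 1 type. Values below without members carrying markers of another type leave these 57 out. They rest on few cells, from 1 member a mouse, as in Control_1, to 6 in minP1_PDL1_2. In the 14 mice the summed monocyte list ran from 1261 to 1661 CPM in minP1_PDL1, 1938 to 4050 CPM in minP1, 1338 to 5994 CPM in PDL1 and 701 to 4953 CPM in Control. The minP1_PDL1 mice lay below all minP1 mice, and the other groups overlapped with Control. Lyz2 reached 50 CP10k in 9 members, 1 in minP1_PDL1, 1 in minP1, 4 in PDL1 and 3 in Control, and these last 3 were all in Control_2. S100a8 reached 10 CP10k in 7 members, 1 in minP1_PDL1, 1 in minP1, 5 in PDL1 (in 3 mice) and 0 in Control. The summed neutrophil list ran from 11.5 to 1025 CPM in minP1_PDL1 and 33.8 to 695 CPM in minP1. It ran from 510 to 2871 CPM in PDL1 and 10.1 to 730 CPM in Control. The part of these markers in the gene levels below was not tested.

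The first comparison asked whether peptide, antibody or both went with more cDC1 in the tumour. cDC1 made up 0.539%, 2.66%, 1.03% and 0.729% of kept cells in the minP1_PDL1 mice, 0.887%, 0.503%, 1.24% and 1.56% in the minP1 mice, 1.24%, 1.72% and 1.79% in the PDL1 mice, and 0.620%, 0.927% and 0.599% in the Control mice. All 3 PDL1 mice lay above all 3 Control mice, while the minP1_PDL1 and minP1 mice overlapped with Control. Without the members that carried markers of another cell type, PDL1_3 lay below Control_3. The exact 95% binomial interval ran from 1.46% to 4.42% in minP1_PDL1_2, the highest mouse, and from 0.128% to 1.80% in Control_1. Mean shares (± SD) were 1.24% ± 0.967 in the 4 minP1_PDL1 mice, 1.05% ± 0.455 in the 4 minP1 mice, 1.58% ± 0.296 in the 3 PDL1 mice and 0.715% ± 0.184 in the 3 Control mice.

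**Figure D3:**
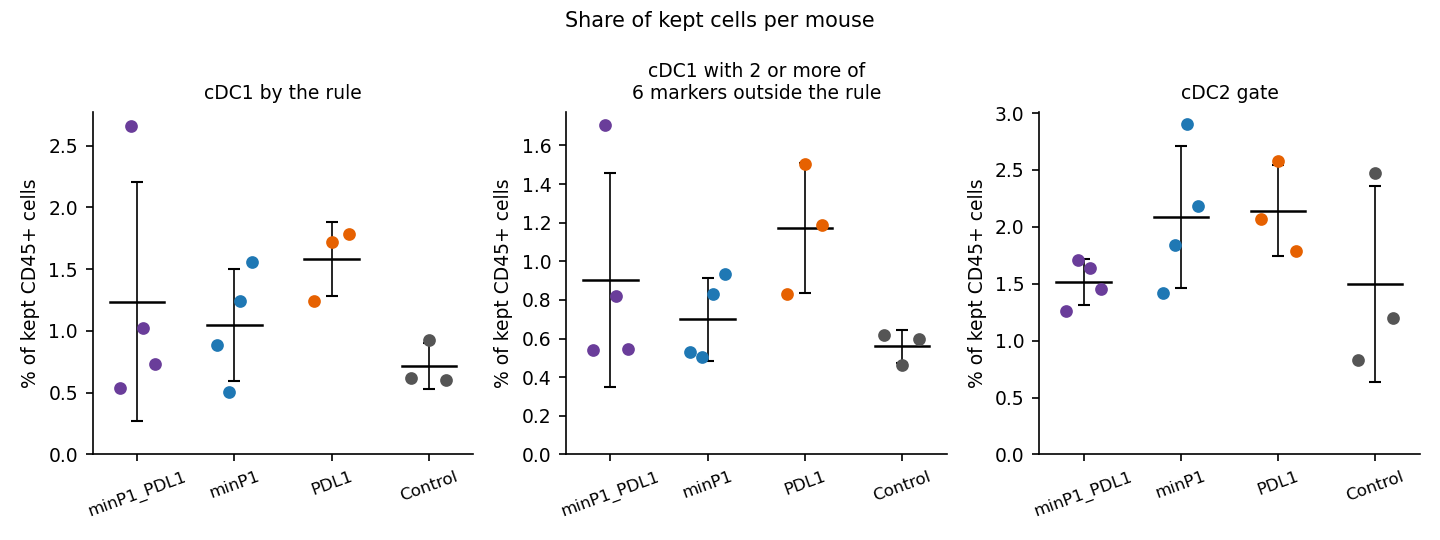
Percent of kept cells of each mouse (points) that were cDC1 by the rule, cDC1 with at least 2 of the 6 markers outside it, and cDC2, by treatment, with mean ± SD (bars stop at 0). The PDL1 mice (1.24% to 1.79% cDC1 by the rule) lie above the Control mice (0.599% to 0.927%), and 1 minP1_PDL1 mouse stands at 2.66%.

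No difference in share passed the test after adjustment over 7 comparisons. PDL1 exceeded Control by 0.866 percentage points, a ratio of means of 2.21, with an exact two-sided permutation p of 0.1, the smallest that 3 against 3 mice allow, and an adjusted p of 0.375. This difference was 0.433 points with both Xcr1 and Clec9a required, and 0.231 points without members carrying markers of another type (exact permutation p = 0.2). Averaged over mice with and without the peptide, the antibody effect was 0.528 percentage points (exact stratified permutation p = 0.107, adjusted p = 0.375), and 0.211 and 0.165 points under those 2 choices. The minP1 mice exceeded Control by 0.332 points (exact permutation p = 0.371, adjusted p = 0.867) and the minP1_PDL1 mice by 0.522 points (exact permutation p = 0.514, adjusted p = 0.88). The minP1_PDL1 mice differed from PDL1 by -0.344 points (exact permutation p = 0.629) and from minP1 by 0.190 points (exact permutation p = 0.8), both less than the spread between the minP1_PDL1 mice. The minP1 effect over both antibody states was -0.00592 points (exact stratified permutation p = 0.990). The comparisons against Control share the same 3 Control mice.

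Among the members with at least 2 of the 6 markers outside the rule, a count chosen after the data were seen and not tested, the shares were 0.539%, 1.71%, 0.821% and 0.546% in minP1_PDL1, 0.532%, 0.503%, 0.829% and 0.935% in minP1, 0.828%, 1.502% and 1.19% in PDL1, and 0.620%, 0.464% and 0.599% in Control. PDL1 again lay above Control in all 3 mice, by 0.613 points on average, against 0.343 points for minP1_PDL1 and 0.139 points for minP1 over Control.

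Set against cDC2 of the same tumour, PDL1 and Control mice overlapped. The log2 ratio of cDC1 to cDC2, with 0.5 added to each number of cells, was -1.10, 0.61, -0.63 and -0.92 in minP1_PDL1, -0.63, -1.72, -1.18 and -0.47 in minP1, -0.69, -0.56 and 0 in PDL1, and -0.36, -1.34 and -0.89 in Control. All 4 groups overlapped. PDL1 differed from Control by 0.45 (exact permutation p = 0.3), and the antibody effect was 0.47 (exact stratified permutation p = 0.129). The remaining comparisons had exact permutation p between 0.4 and 0.886, and the adjusted p was 0.886 for all 7. The ratio was thus not shown to differ between treatments at this number of mice.

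Gene levels within cDC1 were compared on reads summed over the members of each mouse. With edgeR's quasi-likelihood test and Benjamini-Hochberg adjustment, 0 of 7209 genes (0%) passed an adjusted p of 0.05 in any of the 8 comparisons. At an unadjusted p under 0.05 there were 485 genes (6.73%) in minP1_PDL1 against Control, 461 (6.39%) in minP1 against Control, 406 (5.63%) in PDL1 against Control, 238 (3.3%) in minP1_PDL1 against PDL1 and 244 (3.38%) in minP1_PDL1 against minP1. The antibody effect had 344 (4.77%), the minP1 effect 379 (5.26%) and the interaction of the agents 374 (5.19%). DESeq2 called between 0 and 8 genes per comparison, and limma on the log of the mean CP10k of the members between 0 and 2. The biological coefficient of variation was 1.24, which means that the spread of a typical gene between mice of a group was larger than its mean. Without Control_2, the Control mouse with most members, 6 genes passed in minP1_PDL1 against Control, 5 in minP1 against Control and 3 in PDL1 against Control. A count of 0 in so few cells does not show that levels were alike. The values that follow are on library sizes scaled by TMM, in CPM, and are given as levels and differences, none of which passed in this fit.

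cDC1 identity genes outside the rule stayed within the spread of the mice. Naaa was at 3229, 2917, 2652 and 3683 CPM in minP1_PDL1, 1319, 2447, 3047 and 3054 CPM in minP1, 3801, 4065 and 2216 CPM in PDL1, and 2913, 2399 and 2601 CPM in Control. The groups overlapped, with the lowest value in minP1_1. Wdfy4 was at 581, 429, 219 and 160 CPM in minP1_PDL1, 546, 458, 555 and 577 CPM in minP1, 387, 865 and 303.9 CPM in PDL1, and 347, 224 and 575 CPM in Control. Itgae ranged from 89.4 to 318 CPM in minP1_PDL1, 41.9 to 453 CPM in minP1, 192 to 787 CPM in PDL1 and 258 to 454 CPM in Control. Of 15 such markers tested, 7 were above Control in minP1_PDL1, 4 in minP1 and 10 in PDL1, which is 46.7%, 26.7% and 66.7%, beside 55.7%, 55.9% and 57.8% of all genes. These shares of all genes apply to every list count against Control below. In minP1_PDL1, 46.5% of all genes were above PDL1 and 49.6% above minP1, and 41.9% were above 0 in the interaction.

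Csf2rb, the shared receptor chain for GM-CSF, and Ppt1, a lysosomal thioesterase that cDC1 use in cross-presentation, were the members of smallest unadjusted p among growth factor receptors in minP1 and among identity genes in minP1_PDL1. Csf2rb was at 385, 142, 395 and 455 CPM in minP1 and 683, 581 and 793 CPM in Control, without overlap (log2 difference -0.99 ± 0.43 SE, edgeR adjusted p = 0.762). Ppt1 was at 631, 1061, 884 and 2060 CPM in minP1_PDL1 and 496, 352 and 909 CPM in Control, with overlap (0.99 ± 0.39 SE, edgeR adjusted p = 0.738).

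Maturation and migration genes had the lowest median of the 16 gene lists in minP1_PDL1 against minP1 and against PDL1. Across the fit, all-gene median log2 differences were 0.155 in minP1, 0.213 in PDL1 and 0.144 in minP1_PDL1 against Control, and the list values below are relative to these. Of 20 tested of 22 maturation and migration genes, 9 (45.0%) were above Control in minP1_PDL1 with a relative median of -0.14, 16 (80.0%) in minP1 with 1.06, and 15 (75.0%) in PDL1 with 0.52. With genes at 0 in a whole group at the bound that 3 reads over the group allow, the first of these was -0.23 and the others were alike. Folds given below as at least a number use this floor of 3 reads. It takes reads as independent, but they were not collapsed to molecules and came from few cells. Such a fold is thus a nominal value for the reads counted, not a lower limit for the tumours. In minP1_PDL1, 2 of the 20 (10.0%) were above minP1, with a relative median of -1.41, and 4 (20.0%) above PDL1, with -0.93. Over 23 other settings the median ran from -4.18 to -0.87 against minP1 and from -3.95 to -0.03 against PDL1. In the interaction 3 of the 20 were above 0, with a relative median of -2.003. None of the genes passed in the fit described, and some did under other settings, as given below for Cacnb3 and Fscn1.

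The reads of the markers of mature dendritic cells came from few cells. There were 5 members that carried at least 3 of 8 markers of mature dendritic cells, among them Ccr7, Fscn1, Cacnb3, Ccl22 and Socs2. They were 0 of 26 in minP1_PDL1, 4 of 27 in minP1 (in 3 mice), 1 of 23 in PDL1 and 0 of 12 in Control. These 5 held 4.24% of all member reads but 89.5% of the Ccr7, 99.8% of the Fscn1, 93.2% of the Cacnb3, 97.4% of the Ccl22, 93.1% of the Socs2 reads, and 75.4% of those of Il12b, which is on another list. Their median Naaa was 0 CP10k, and 1 of the 5 had at least 2 of the 6 cDC1 markers outside the rule. Summed over the 8 markers, the level ran from 0 to 479 CPM in minP1_PDL1, 96.2 to 3587 CPM in minP1, 27.9 to 4708 CPM in PDL1 and 2.49 to 141 CPM in Control. Whether these few cells were cDC1 was not tested.

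Ccr7 was at 0, 0, 471 and 63.0 CPM in minP1_PDL1, 1078, 64.3, 9.30 and 184 CPM in minP1, 12.3, 1.66 and 1292 CPM in PDL1, and 7.71, 0 and 0 CPM in Control. The PDL1 value rested on PDL1_3, which held the mature member (log2 difference 7.14 ± 3.44 SE against Control, edgeR adjusted p = 0.871). Fscn1, an actin-bundling protein of mature dendritic cells, was at 0 in all 4 minP1_PDL1 mice, against 631, 0, 55.8 and 438 CPM in minP1, and at 0, 0 and 457 CPM in PDL1, against 0 in all 3 Control mice. In minP1_PDL1 it was at least 175-fold lower than in minP1 (edgeR adjusted p = 0.999). This difference passed under DESeq2 (adjusted p = 3.72e-06) and without the 57 members carrying markers of another type (edgeR adjusted p = 0.00662). Its adjusted p over all settings ran up to 1.

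Cacnb3, a calcium channel subunit known as a marker of mature dendritic cells, had the smallest unadjusted p of any gene in minP1_PDL1 against minP1 and in the interaction. It was at 0 in all 4 minP1_PDL1 mice, at 223, 30.7, 226 and 218 CPM in minP1, at 0, 3.32 and 137 CPM in PDL1, and at 0 in all 3 Control mice. All minP1 mice lay above all minP1_PDL1 and Control mice. In minP1_PDL1 it was at least 108-fold lower than in minP1 (edgeR adjusted p = 0.702) and at least 29.0-fold lower than in PDL1 (edgeR adjusted p = 1). In minP1 it was at least 59.4-fold higher than in Control (edgeR adjusted p = 0.762), and the interaction had an edgeR adjusted p of 0.0806. DESeq2 called the gene in minP1_PDL1 against minP1 (adjusted p = 0.0034), in minP1 against Control (0.0341) and in the interaction (0.000168). The difference from minP1 also passed in edgeR without a filter on low counts (adjusted p = 0.0295), in limma (0.0494) and without members carrying other markers (0.0481). The interaction also passed in edgeR without a filter (adjusted p = 0.00038), without those members (0.00115), without PDL1_1 (0.00408) and without PDL1_2 (0.00578). Over all settings the adjusted p reached 1 for both comparisons of 2 groups and 0.819 for the interaction, so the calls depend on tool, filter and mouse.

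Cd83, a surface protein that stabilises MHC class II, was spread over more cells, since the 5 mature members held 12.3% of its reads. It was at 145, 852, 420 and 457 CPM in minP1_PDL1, 743, 1433, 767 and 882 CPM in minP1, 592, 800 and 1081 CPM in PDL1, and 896, 453 and 1178 CPM in Control. Against minP1 the minP1_PDL1 mice were lower by the fit, with minP1_PDL1_2 inside the minP1 range (log2 difference -1.03 ± 0.39 SE, edgeR adjusted p = 0.999).

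**Figure D4:**
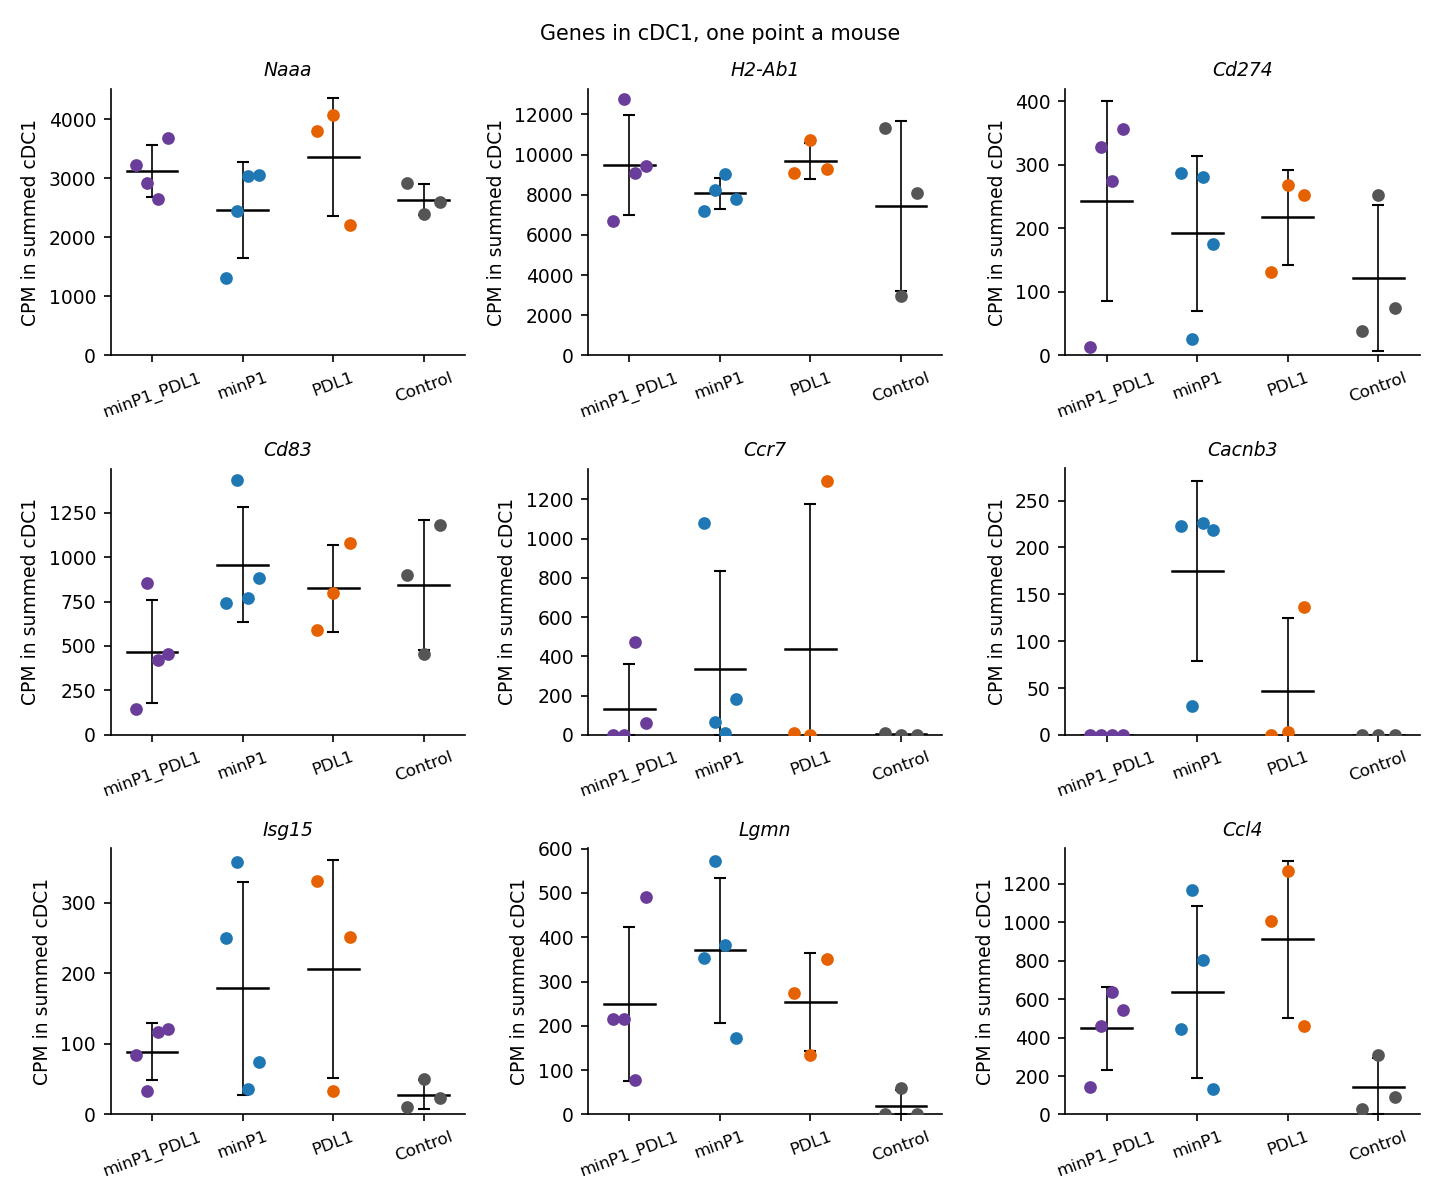
CPM (TMM-scaled) of 9 genes in the summed members of each mouse (points), by treatment, with the group mean. Cacnb3 lies at 0 in all minP1_PDL1 and Control mice and between 30.7 and 226 CPM in minP1, while Naaa and H2-Ab1 overlap between groups.

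Antigen presentation genes overlapped between most groups. For MHC class II, 11 of 12 tested of 13 genes were above Control in minP1_PDL1 (91.7%, relative median 0.28), 7 in minP1 (58.3%, -0.06) and 11 in PDL1 (91.7%, 0.12), against 55.7%, 55.9% and 57.8% of all genes. H2-Ab1 was at 6717, 12774, 9084 and 9426 CPM in minP1_PDL1, 7181, 8214, 9053 and 7814 CPM in minP1, 9070, 10711 and 9292 CPM in PDL1, and 11328, 2946 and 8077 CPM in Control. The low value was that of Control_2, in which 3 of 6 members had Lyz2 at 50 CP10k or more. Ciita, the transactivator of MHC class II genes, was at 101, 242, 595 and 271 CPM in minP1_PDL1 and 36.9, 135 and 111 CPM in PDL1, with overlap (1.68 ± 0.81 SE, edgeR adjusted p = 1), and its sign turned without members that carried markers of other types (-0.20).

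For MHC class I and cross-presentation, 17 of 25 genes were above Control in minP1_PDL1 (relative median 0.25), 17 in minP1 (0.08) and 18 in PDL1 (0.19). These are 68.0%, 68.0% and 72.0%, beside 55.7%, 55.9% and 57.8% of all genes. B2m, the light chain of MHC class I, was at 1898, 7172, 3258 and 6110 CPM in minP1_PDL1, 3219, 4551, 6752 and 5947 CPM in minP1, 5797, 3924 and 5501 CPM in PDL1, and 3041, 3351 and 3116 CPM in Control. The 3 PDL1 mice lay above the 3 Control mice and the other groups overlapped with Control. Psme1, a regulator of the proteasome that interferon induces, was at 1157, 1196, 1144 and 1151 CPM in minP1 and 511, 301.3 and 779 CPM in Control, without overlap (log2 difference 1.13 ± 0.34 SE, edgeR adjusted p = 0.762). The 4 minP1 mice lay closer together than the mice of any other group for this gene.

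Lgmn, a lysosomal protease that cuts antigen, separated Control from all treated mice. It was at 215, 216, 76.7 and 491 CPM in minP1_PDL1, 352, 573, 383 and 172 CPM in minP1, 275, 135 and 351 CPM in PDL1, and 0, 60.3 and 0 CPM in Control. Each treated mouse was above each Control mouse, and the 3 groups share these Control mice. Against Control the minP1 mice differed by 4.11 ± 1.10 SE on the log2 scale (edgeR adjusted p = 0.762). This gene passed under DESeq2 (adjusted p = 0.00976) and limma on the log of mean CP10k (adjusted p = 0.00145). It also passed in edgeR without a filter on low counts (adjusted p = 0.00144) and in edgeR without Control_2 (1.15e-05). Its call thus depends on the tool and on that mouse. Over all 23 alternatives its adjusted p lay between 1.15e-05 and 1.

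Checkpoint ligands and receptors included Cd274, the gene of the antibody's target. It was at 13.4, 328, 274 and 357 CPM in minP1_PDL1, 288, 25.1, 281 and 175 CPM in minP1, 132, 269 and 252 CPM in PDL1, and 38.5, 253 and 74.2 CPM in Control, and all groups overlapped. Vsir, which encodes the inhibitory protein VISTA, was at 4.47, 94.7, 157 and 160 CPM in minP1_PDL1 and 5.14, 26.5 and 9.27 CPM in Control (log2 difference 2.89 ± 1.39 SE, edgeR adjusted p = 0.738), with minP1_PDL1_1 below all Control mice. Havcr2, which encodes TIM-3, a receptor that restrains tumour cDC1, was at 51.4, 180, 373 and 89.3 CPM in minP1_PDL1 and 2.94, 0, 20.2 and 24.6 CPM in minP1, without overlap (3.77 ± 1.05 SE, edgeR adjusted p = 0.999). It stood at 64.5, 93.0 and 191 CPM in PDL1 and 74.5, 89.2 and 121 CPM in Control, so the minP1 mice were the low ones, and DESeq2 called the difference from minP1 (adjusted p = 0.0258). Of 9 tested of 14 genes of the checkpoint list, which holds Cd274 and Vsir but not Havcr2, 7 were above Control in minP1_PDL1 (relative median 0.48), 5 in minP1 (0.13) and 7 in PDL1 (0.62). These are 77.8%, 55.6% and 77.8%, beside 55.7%, 55.9% and 57.8% of all genes.

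Interferon response genes were counted next. Of 26 tested of 32 type I interferon genes, 14 (53.8%) were above Control in minP1_PDL1, 17 (65.4%) in minP1 and 19 (73.1%) in PDL1, with relative medians of 0.09, 0.32 and 0.37. At an unadjusted p under 0.05 there were 3, 3 and 6 of the 26, beside 6.73%, 6.39% and 5.63% of all genes. In minP1_PDL1, 7 of 26 (26.9%) were above PDL1, with a relative median of -0.58, against 46.5% of all genes. Isg15, printed above for its promoter, was at 84.97, 32.9, 117 and 121 CPM in minP1_PDL1, 250, 358, 35.7 and 73.7 CPM in minP1, 332, 33.2 and 252 CPM in PDL1, and 10.3, 50.6 and 23.2 CPM in Control. PDL1 overlapped with Control through PDL1_2 (log2 difference 2.86 ± 1.017 SE, edgeR adjusted p = 0.871).

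Ifitm3, an antiviral membrane protein that interferons induce, was not on the list and was lower in minP1_PDL1, at 280, 868, 562 and 431 CPM in minP1_PDL1 and 873, 1692 and 2091 CPM in Control, without overlap (-1.53 ± 0.36 SE, edgeR adjusted p = 0.738). Jak2, a kinase of the interferon gamma receptor, was at 89.1, 56.5 and 312.2 CPM in PDL1 and 712, 166 and 714 CPM in Control, with overlap (-1.79 ± 0.66 SE, edgeR adjusted p = 0.871). Of 22 tested of 24 interferon gamma response genes, 10 were above Control in PDL1, with a relative median of -0.47.

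Cytokines and chemokines for T and NK cells differed widely between mice of a group. Ccl4, an inflammatory chemokine, was at 145, 462, 639 and 544 CPM in minP1_PDL1, 446, 1168, 805 and 132 CPM in minP1, 1006, 1265 and 463 CPM in PDL1, and 30.8, 310.99 and 92.7 CPM in Control. The PDL1 mice lay above the Control mice (log2 difference 2.64 ± 0.90 SE, edgeR adjusted p = 0.871, and 0.00462 without a filter on low counts). Cxcl9 was at 0, 293, 632 and 883 CPM in minP1_PDL1, 164, 2989, 474 and 648 CPM in minP1, 307.3, 209 and 262 CPM in PDL1, and 33.4, 108 and 1878 CPM in Control, with all groups overlapping. Il12b reached 1 CP10k in 10 members of 9 mice. It was at 0, 135, 201 and 150 CPM in minP1_PDL1, 755, 41.9, 180 and 920 CPM in minP1, 1.54, 0 and 1002 CPM in PDL1, and 719, 0 and 445 CPM in Control, and no group stood apart.

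Of 17 tested of 26 genes of this list, 8 were above Control in minP1_PDL1 (relative median -0.49), 12 in minP1 (0.49) and 11 in PDL1 (0.28). These are 47.1%, 70.6% and 64.7%, beside 55.7%, 55.9% and 57.8% of all genes. Il15ra, which presents IL-15 to T and NK cells, was at 94.0, 0, 93.0 and 88.2 CPM in minP1 and at 0 in all 3 Control mice, at least 23.4-fold higher (edgeR adjusted p = 0.762), and it was also at 0 in 2 of 4 minP1_PDL1 and 2 of 3 PDL1 mice. Of 6 tested of 9 chemokine receptors, 6 (100%) were above Control in each treated group. Of all genes, 55.7%, 55.9% and 57.8% were above Control in minP1_PDL1, minP1 and PDL1. Relative medians of the list at the bound were 2.25 in minP1_PDL1, 2.47 in minP1 and 1.56 in PDL1. In Control, 2 of the 6 had no read in any mouse, Cxcr3 among them. Cxcr3, the receptor of CXCL9 and CXCL10, was at 0, 36.8, 0 and 150 CPM in minP1_PDL1, 0, 0, 24.8 and 117 CPM in minP1, 0, 141 and 69.5 CPM in PDL1, and 0 in all 3 Control mice. In PDL1 it was at least 23.9-fold higher than in Control (edgeR adjusted p = 0.871), with 1 PDL1 mouse at 0 as well.

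**Figure D5:**
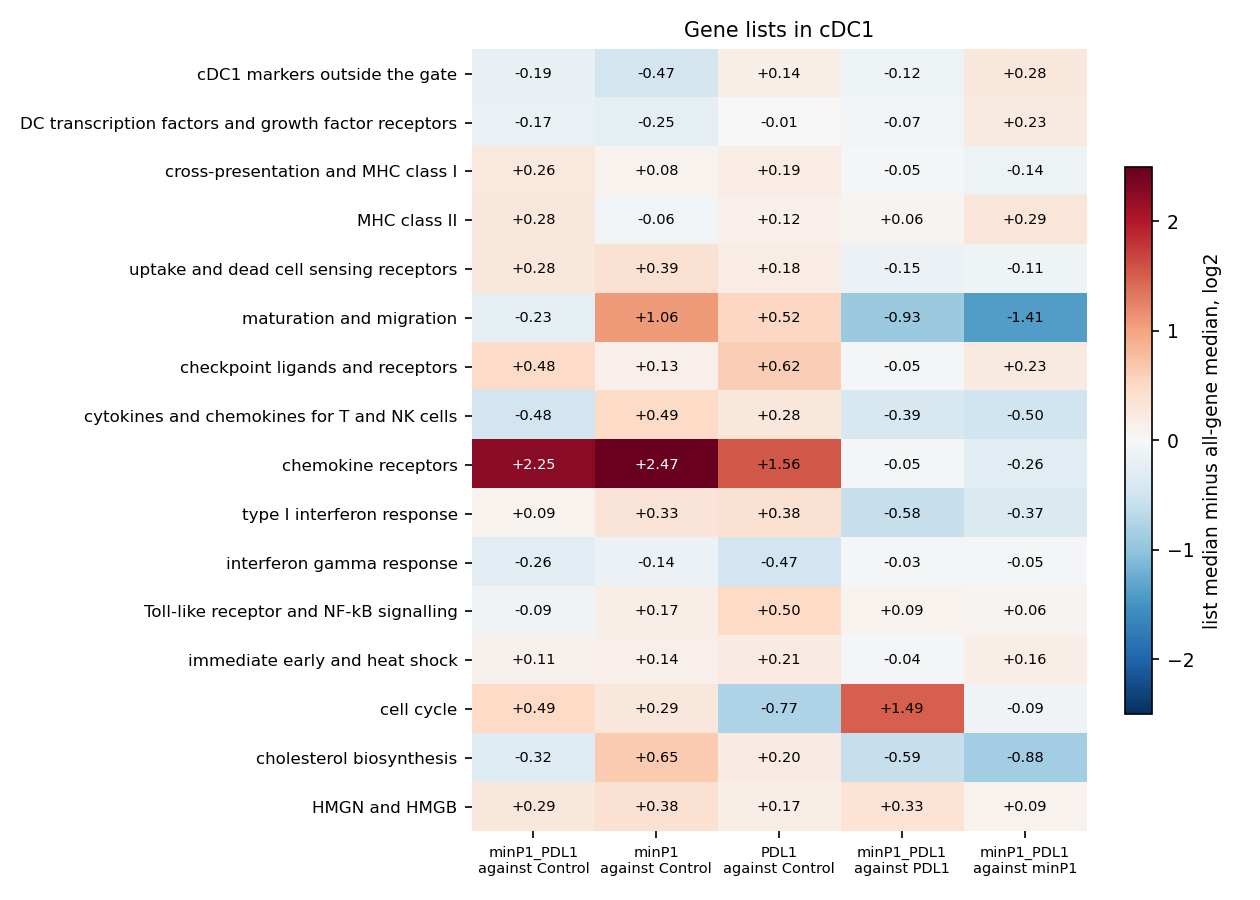
Median log2 difference of each gene list minus that of all genes tested (colour), with genes at 0 in a whole group set at their bound, for lists (down the page) and comparisons (across). Of the 5 comparisons drawn, which leave out the interaction, the lowest maturation and migration values, -1.41 and -0.93, are those of minP1_PDL1 against minP1 and against PDL1, and the cell cycle list is at 1.49 in minP1_PDL1 against PDL1.

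Cycling members were found in every group. At least 5 of 28 cell cycle genes were on in 21 members of 12 mice, 8 of 26 in minP1_PDL1, 7 of 27 in minP1, 3 of 23 in PDL1 and 3 of 12 in Control. Of these, 20 had at least 2 of the 6 cDC1 markers outside the rule, and their median Naaa was 35.6 CP10k. They were also deeper, with a median of 128970 reads against 59026 reads in the members without, and the part of depth was not tested. Of 29 tested of 30 cell cycle genes, 23 (79.3%) were above PDL1 in minP1_PDL1, with a relative median of 1.49. Over 23 other settings this median ran from -0.49, in mice with at least 5 members, to 2.41, without PDL1_1, and it was 0.55 without minP1_PDL1_1. Against Control there were 19 (65.5%) in minP1_PDL1, 16 (55.2%) in minP1 and 9 (31.0%) in PDL1, with relative medians of 0.49, 0.29 and -0.78, whose sign held in 19, 20 and 22 of 23 other settings.

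Mcm7, a subunit of the replicative helicase, was at 179, 5.26, 21.9 and 31.5 CPM in minP1_PDL1, 197, 81.0, 0 and 171 CPM in minP1, 0, 1.66 and 1.18 CPM in PDL1, and 12.8, 0 and 0 CPM in Control. Mice with the peptide lay above mice without it except minP1_3 and minP1_PDL1_2 (minP1 effect 5.10 ± 1.42 SE on the log2 scale, edgeR adjusted p = 0.837). Pcna, the sliding clamp of DNA replication, was at 693, 321, 208 and 696 CPM in minP1_PDL1 and 190, 227 and 158 CPM in Control, with overlap (1.32 ± 0.58 SE, edgeR adjusted p = 0.738). Mki67, a marker of dividing cells, was at 581, 69.7, 18.3 and 91.9 CPM in minP1_PDL1, 76.4, 5.59, 336 and 36.1 CPM in minP1, 131, 0 and 57.7 CPM in PDL1, and 15.4, 352 and 0 CPM in Control, and all groups overlapped.

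Several genes of smallest unadjusted p stood outside all lists. Nrp1, a coreceptor for semaphorins and VEGF, was at 195, 146 and 191 CPM in PDL1 and 2.57, 0 and 0 CPM in Control, without overlap (log2 difference 7.21 ± 1.80 SE, edgeR adjusted p = 0.871). It was at 17.9, 124, 164 and 2.63 CPM in minP1_PDL1 and 35.2, 78.2, 115 and 7.23 CPM in minP1, also above Control in every mouse, though by little in minP1_PDL1_4, and its antibody effect was 3.80 ± 1.03 SE (edgeR adjusted p = 0.999). Luc7l, a splicing factor, was at 112, 128, 51.1 and 65.7 CPM in minP1_PDL1, 66.1, 101 and 48.3 CPM in PDL1 and 0 in all 3 Control mice. It was at least 30.3-fold higher in minP1_PDL1 than in Control (edgeR adjusted p = 0.738) and at least 24.4-fold higher in PDL1 (edgeR adjusted p = 0.871). Cpeb4, which binds messenger RNA tails, was at 21.5, 86.4 and 163 CPM in PDL1 and 0 in all 3 Control mice, at least 30.6-fold higher (edgeR adjusted p = 0.871). Acsl1, a fatty acid activating enzyme, had the smallest unadjusted p for the antibody effect (edgeR adjusted p = 0.999), with 0, 167, 18.3 and 36.8 CPM in minP1_PDL1, 0 in all 4 minP1 mice, 9.22, 126 and 63.6 CPM in PDL1 and 0 in all 3 Control mice. DESeq2 called Nrp1 in PDL1 against Control (adjusted p = 0.0462), Luc7l in minP1_PDL1 (0.00951) and PDL1 (0.0276) against Control and Acsl1 for the antibody effect (0.0445).

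Serpinf1 and Timp2, genes of secreted inhibitors, were lower in minP1 than in Control. Serpinf1 was at 0 in all 4 minP1 mice and 152, 239 and 9.27 CPM in Control, at least 90.3-fold lower (edgeR adjusted p = 0.762). Timp2 was at 0, 2.79, 1.55 and 0 CPM in minP1 and 103, 564 and 0 CPM in Control (-7.44 ± 2.02 SE, edgeR adjusted p = 0.762). A single member of Control_2 held 97.4% of that mouse's Timp2 and 100% of its Serpinf1 reads. It had 206400 reads, 51.4% of the member reads of Control_2, with Naaa at 38.4 CP10k and the fibroblast genes Col1a2 at 29.5, Col3a1 at 28.3 and Sparc at 36.0 CP10k. Over 7 fibroblast genes the sum ran from 0 to 34.9 CPM in minP1_PDL1, 0 to 37.3 CPM in minP1, 3.11 to 6.19 CPM in PDL1 and 2.44 to 10431 CPM in Control, and its part in these differences was not tested. DESeq2 called Serpinf1 (adjusted p = 0.00976) and Timp2 (0.0305), and edgeR called Timp2 in mice with at least 5 members (0.00961).

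B3gat3, an enzyme of proteoglycan assembly, and Serpinb1a, an inhibitor of granule proteases, were at 0 in all 4 minP1_PDL1 mice. DESeq2 called B3gat3 against Control (adjusted p = 0.0328) and Serpinb1a against minP1 (0.0203), and edgeR without a filter on low counts called Serpinb1a (0.0484). B3gat3 was at 0, 62.7 and 232 CPM in Control, and at least 60.9-fold lower in minP1_PDL1 (edgeR adjusted p = 0.738), and at 76.8, 4.98 and 40.0 CPM in PDL1 (edgeR adjusted p = 1). Serpinb1a was at 250, 0, 23.3 and 328 CPM in minP1, and at least 93.3-fold lower in minP1_PDL1 (edgeR adjusted p = 0.999). It was at 16.9, 103 and 8.25 CPM in PDL1 (edgeR adjusted p = 1 for minP1_PDL1 against PDL1). Asf1a, a histone chaperone, and Atg12, an autophagy protein, were also among the genes of smallest unadjusted p for the minP1 effect, each with an edgeR adjusted p of 0.837. Asf1a had reads in 3 of 4 minP1_PDL1 and 2 of 4 minP1 mice and was at 0 in all PDL1 and Control mice, while Atg12 was at 0 in all 4 minP1 mice and had reads in 2 of 4 minP1_PDL1, 3 of 3 PDL1 and 2 of 3 Control mice.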

How the data were processed

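CD45+ cells of 14 tumours were profiled in a hashtagged BD Rhapsody library. The deposited table holds counts, made by the authors as reads per gene and cell that are not collapsed to molecules. Per the submitters' processing notes, cutadapt 2.10, Bowtie2 2.3.4.1, the mm10 build and Seurat 2.3.4 were used, with no order of steps given in the sources used here. Of 8262 barcodes, 147 (141 named doublets, 6 without a hashtag) were not used, nor was any column outside the 14 mice, and no further doublet caller was run. Cells with over 25% mitochondrial reads were dropped, which left 7732 of 8115.

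Members were taken by the rule in the text, and reads were summed over the members of each mouse. All 14 mice had at least 3 members. They were tested with edgeR 4.0.16 (R 4.3.3; TMM, filterByExpr, robust quasi-likelihood fit over 4 groups, two-sided, adjusted over 7209 genes). The antibody and minP1 effects are means of the 2 simple effects and the interaction is their difference. Comparisons share mice. Shares were tested by exact permutation of mice (numpy 2.4.6), and adjusted over 7 comparisons. Exact binomial intervals of shares came from scipy 1.17.1. Levels between cell classes are plain CPM, and levels between treatments are CPM on TMM-scaled sizes. A gene at 0 in a whole group has a nominal bound from 3 reads over that group, which takes reads as independent. Alternatives included DESeq2 1.42.0, limma 3.58.1 on log2(mean CP10k + 0.1), other filters and each mouse left out. The fit was tested on simulated data.

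The members, gene lists and tests were chosen with earlier results of these data known. Genes named were taken mainly from the markers, the 3 of smallest unadjusted p in each comparison, the up to 4 highest and the smallest p of each list, and up to 15 leading genes. Some, such as Mki67 and Tlr4, were named outside these choices, and not every gene that met these choices is given. No same-numbered pair of mice had a correlation of deviations over 0.1. With so few members a mouse, this cannot tell whether the numbers pair the mice. Some items are not reported here.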

Additional observations from a re-analysis of the deposited data

Results flagged for a closer look

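Values were examined in 108 groups of 4 mice. Of these, 11 held a mouse whose distance to its nearest neighbour was more than 0.829 of the group's range. For normally distributed values, chance gives this in about 1 of 20 groups. Most values here were CPM of few cells, for which that rate need not hold. Among maturation genes, Ccr7 was at 471.2 CPM in minP1_PDL1_3, against 63.05 CPM in the next mouse, and at 1078 CPM in minP1_1, against 183.6 CPM in the next. Cacnb3 was low in minP1_2, at 30.73 CPM, where the next mouse had 218.3 CPM. Il15ra was at 0 CPM in minP1_2, and the nearest minP1 mouse had 88.2 CPM.

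Of proliferation genes, Mcm7 (178.9 CPM, next 31.52 CPM) and Mki67 (581.4 CPM, next 91.95 CPM) stood apart in minP1_PDL1_1, a mouse with 3 members, all of them cycling. Hmgn2 stood apart in the same mouse, at 1221 CPM against 344.1 CPM in the next. Cpeb4 was at 173.2 CPM in minP1_2 against 24.58 CPM in the next, Hspa8 at 3160 CPM in minP1_PDL1_3 against 2267 CPM, Timp2 at 26.27 CPM in minP1_PDL1_4 against 2.631 CPM, and Ppt1 at 1082 CPM in minP1_4 against 623 CPM. The cDC1 share of minP1_PDL1_2, at 2.66%, did not meet this limit.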

How the results depend on the processing

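With few members a mouse, single mice and cells set most values. Of 157 alternative values of cDC1 shares 145 kept their sign, as did 117 of 126 of the cDC1 to cDC2 ratio, but sizes moved. PDL1 exceeded Control by 0.866 points as reported, 0.433 with both Xcr1 and Clec9a required and 0.231 without members carrying markers of other types, and the antibody effect was 0.528, 0.211 and 0.165. The difference in share between minP1_PDL1 and minP1 was -0.0104 points with both Xcr1 and Clec9a required, and the minP1 effect was 0.0597 points without members carrying markers of other types and 0.375 points as a percent of dendritic cells. The ratio of minP1_PDL1 to PDL1 was 0.160 without those members.

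Leaving out each mouse in turn, shares ran from 0.764 to 1.04 points for PDL1 against Control, 0.292 to 0.645 for the antibody effect, 0.162 to 0.514 for minP1 against Control, -0.242 to 0.111 for the minP1 effect, 0.0493 to 0.755 for minP1_PDL1 against Control, -0.817 to -0.111 against PDL1 and -0.283 (without minP1_PDL1_2) to 0.423 against minP1. Log2 ratios ran from 0.21 to 0.70, 0.28 to 0.60, -0.37 to 0.12, -0.30 to 0.0144, -0.0152 to 0.61, -0.47 to 0.12 and 0.12 to 0.69 in that order. Genes called ran from 0 to 3 for PDL1 against Control, 0 to 2 for the antibody effect, 0 to 5 for minP1 against Control, 0 to 4 for the minP1 effect, 0 to 6 for minP1_PDL1 against Control, 0 to 3 for the interaction and 0 elsewhere. The highest counts were without Control_2. Without Control_3 there was 1 in minP1_PDL1 against Control, and without PDL1_1 or PDL1_2 1 in the interaction.

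In the order minP1, PDL1 and minP1_PDL1 against Control, minP1_PDL1 against PDL1 and against minP1, antibody effect, minP1 effect and interaction, DESeq2 called 8, 4, 4, 2, 6, 2, 0 and 3 genes and mice with at least 5 members 29, 32, 24, 0, 2, 14, 13 and 7, with Control_2 as the lone Control mouse, assumed to vary like the other groups. Without members carrying other markers the counts were 0, 0, 1, 2, 3, 0, 0 and 11 of 3829 genes, without a filter 1, 2, 1, 0, 2, 0, 0 and 7 of 16240, and with limma 2, 0, 1, 0, 1, 0, 0 and 0. RLE scaling, all mice with a member and fits of the 2 groups alone gave 0; RLE moved the all-gene median of PDL1 against Control to 0.029. With the replicate number as a block, 1 gene was called for the minP1 effect and 0 elsewhere, and the PDL1 share difference was 0.866 points (exact permutation p = 0.25); 19 same-numbered pairs had r between -0.086 and 0.068, and 4 of 14 mice correlated best with their own number. Of single genes, Ciita was -0.20 without members carrying other markers and Hmgn2 -0.57 with at least 5 members a mouse. The cell cycle median of minP1_PDL1 against PDL1 turned to -0.49 with at least 5 members a mouse. Of 953 single gene values 34 passed under an alternative and not as reported, most often under DESeq2. The causes were not tested. Depth limits all of this: genes of 1 or 2 cells cannot be told from genes of a group.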

Other observations

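Genes of other pathways were read in the same members, and 0 of them passed edgeR's adjusted p of 0.05 in the fit described. Of 16 tested of 20 cholesterol biosynthesis genes, 3 were above PDL1 in minP1_PDL1 and 4 above minP1, with medians of -0.59 and -0.88 relative to all genes. Mvk, mevalonate kinase, was at 0 CPM in all 4 minP1_PDL1 mice and at 0, 18.3 and 44.8 CPM in PDL1 (edgeR adjusted p = 1). Hspa8, a constitutive heat shock chaperone, was at 2267, 2246, 3160 and 2186 CPM in minP1_PDL1 and 652, 950 and 2188 CPM in Control (log2 difference 0.97 ± 0.30 SE, edgeR adjusted p = 0.738), overlapping at 1 mouse of each group, and passed without Control_3 (edgeR adjusted p = 0.0244).

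The peptide's parent gene and its described receptor gave no difference beyond the spread of mice. Hmgn1 was at 268, 30.3, 124 and 394 CPM in minP1_PDL1, 349, 179, 21.7 and 315 CPM in minP1, 118, 81.4 and 190 CPM in PDL1, and 92.5, 181 and 23.2 CPM in Control. Tlr4 was at 0, 53.9, 3.65 and 10.5 CPM in minP1_PDL1, 0, 36.3, 10.9 and 83.9 CPM in minP1, 43.0, 43.2 and 9.42 CPM in PDL1, and 0, 33.8 and 0 CPM in Control. Hmgn2 differed between minP1_PDL1 and Control by 1.04 ± 0.50 SE on the log2 scale (edgeR adjusted p = 0.738), with minP1_PDL1_1 far above the rest. Actb, beta-actin, was at 15708, 14738, 17901 and 13322 CPM in minP1_PDL1, 15548, 22499, 20236 and 23578 CPM in minP1, 20771, 18594 and 23903 CPM in PDL1, and 17379, 17786 and 13975 CPM in Control (interaction -0.77 ± 0.21 SE, edgeR adjusted p = 0.881, and 0.0303 without a filter on low counts). The share of cDC2 among kept cells was lower in minP1_PDL1 (1.52% ± 0.203, SD, n = 4) than in PDL1 (2.14% ± 0.400, SD, n = 3) by 0.628 points, without overlap (exact permutation p = 0.0286, adjusted p = 0.2).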
